A study of Homo sapiens with 24 samples.

Results

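Phosphatidylethanolamine is made in human cells by enzymes of 6 genes described here: PISD, ETNK1, ETNK2, PCYT2, SELENOI and CEPT1. They were chosen by name for their place in the pathway, with earlier results of these data known, and they are 6 of the 25343 genes listed in each library. RNA abundance was measured by poly(A) RNA sequencing in A375, a melanoma line, and HCT116, a colon cancer line. Each line was sampled in 4 groups of 3 libraries, 24 libraries in all: a PTDSS2 knockout clone after 24 h with 0.1 µM DS07551382, the same clone with the solvent DMSO, the parent with DS07551382 and the parent with DMSO. The parents are labelled wild type, DS07551382 inhibits the enzyme PTDSS1, and the question is what cells without PTDSS2 do when PTDSS1 is blocked. Each line has 1 knockout clone (number 54 for A375 and number 3 for HCT116), so a knockout group stands for that clone only. The labels do not say whether the 3 libraries of a group came from separate cultures, so the p-values rest on the spread between libraries, and that spread may be only technical.

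Phosphatidylethanolamine is a major membrane lipid of mitochondria and of the inner leaflet of the plasma membrane. By the mitochondrial route it is made from phosphatidylserine, the product of PTDSS1 and PTDSS2, which PISD decarboxylates at the inner mitochondrial membrane. By the CDP-ethanolamine route, ethanolamine is phosphorylated by ETNK1 or ETNK2, activated by PCYT2 to CDP-ethanolamine, and joined to diacylglycerol by SELENOI in the Golgi or CEPT1 in the endoplasmic reticulum. PTDSS2 uses phosphatidylethanolamine as its substrate, so the synthesis of the phospholipids named here is linked in both directions.

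Library totals ran from 6211629 to 11688267 expected counts. PTDSS2 RNA was low in the libraries labelled knockout: it averaged 1.38 ± 0.356 TPM, a level scaled for length and library size (SD, n = 3 here and throughout), with DS07551382 and 0.727 ± 0.123 TPM with DMSO in the A375 clone, against 19.1 ± 1.39 and 19.7 ± 0.895 TPM in the A375 parent. The HCT116 clone kept 4.73 ± 1.00 TPM with DS07551382 and 5.48 ± 1.05 TPM with DMSO, against 31.2 ± 2.04 and 30.1 ± 2.26 TPM in the HCT116 parent. The summed level of 9 melanocyte markers was 390.5 to 557.6 TPM in A375 libraries and 17.3 to 28.0 TPM in HCT116 libraries, although the pigment genes PMEL, MLANA, TYR and DCT averaged under 1 TPM over each A375 group. The summed level of 8 colon epithelium markers was 295.9 to 403.7 TPM in A375 libraries and 4278.3 to 5228.4 TPM in HCT116 libraries, with VIL1 and LGALS4 near 0 in HCT116.

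All 6 genes passed the filter on low counts in both lines. In the A375 clone with the inhibitor SELENOI and PCYT2 rose and ETNK2 fell, so 3 of the 6 changed, where 37.5% of all 13455 genes tested changed (18.7% higher and 18.8% lower; edgeR quasi-likelihood test, adjusted p under 0.05 throughout). In the HCT116 clone PISD rose and ETNK1 and SELENOI fell, again 3 of 6, where 37.1% of 13164 genes changed (17.1% higher and 20.1% lower). The median log2 fold change of the 6 genes was -0.01 in the A375 clone (0.01 over all genes tested) and 0.02 in the HCT116 clone (0 over all genes). These counts were near the background shares. SELENOI passed the test in both clones, in opposite directions. In cells grown in bulk, less RNA per cell and fewer cells of one kind cannot be told apart.

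**Figure D1:**
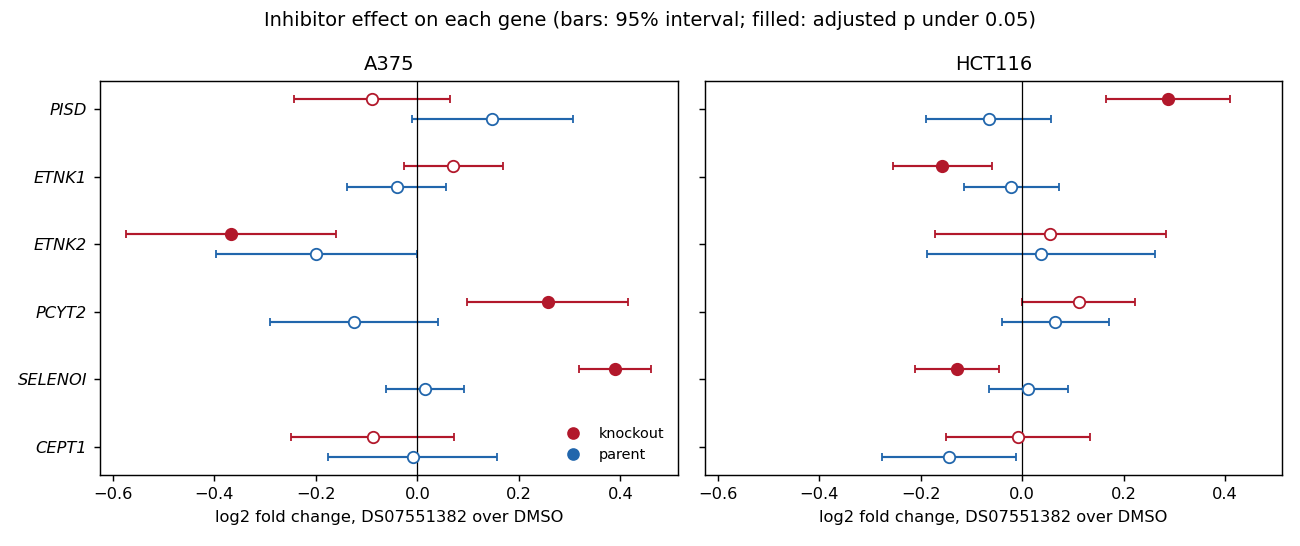
Log2 fold change with DS07551382 over DMSO for each gene, A375 at left and HCT116 at right, knockout clones in red above parents in blue. Bars are 95% intervals and filled points passed the edgeR test. SELENOI (0.39) and PCYT2 (0.26) are filled to the right of 0 in the A375 clone and PISD (0.29) in the HCT116 clone. ETNK2 in the A375 clone, and ETNK1 and SELENOI in the HCT116 clone, are filled to the left of 0. All parent points are open.

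In the parents the inhibitor moved none of the 6 genes past the test. In the A375 parent 14 of 13455 genes (0.104%, with 0.0372% higher and 0.0669% lower) were called and 884 had an unadjusted p under 0.05. The log2 fold changes of the 6 ran from -0.20 ± 0.10 for ETNK2 to 0.15 ± 0.08 for PISD (± SE here and below). In the HCT116 parent 0 of 13164 genes passed with edgeR, although 530 were under 0.05 before adjustment; DESeq2 called 1 gene and limma-voom 0. There the 6 ran from -0.14 ± 0.07 for CEPT1 to 0.06 ± 0.05 for PCYT2.

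PISD, the decarboxylase of the mitochondrial route, rose in the HCT116 clone. Its level was 46.5, 51.5 and 47.7 TPM in HCT116 knockout libraries with DS07551382, against 40.45, 39.1 and 39.9 TPM in knockout libraries with DMSO. The HCT116 parent had 37.7, 36.7 and 36.6 TPM with DS07551382, against 37.5, 41.6 and 38.4 TPM with DMSO. The 3 knockout libraries with inhibitor were therefore the highest 3 of the line, and the other 9 spanned 36.6 to 41.6 TPM. The log2 fold change in the clone was 0.29 ± 0.06 (1.22-fold, edgeR adjusted p = 0.0001099), and the effect in the clone minus that in the parent was 0.35 ± 0.09 (edgeR adjusted p = 0.0012). Both calls held in all alternatives tried.

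In A375, PISD did not pass the test. It measured 22.1, 23.5 and 22.8 TPM in knockout libraries with DS07551382, against 24.2, 23.1 and 23.9 TPM with DMSO. The log2 fold change was -0.09 ± 0.08 (95% interval -0.24 to 0.06, edgeR adjusted p = 0.3899). The inhibitor effect on PISD in the A375 clone minus that in the HCT116 clone was -0.37 ± 0.10 (edgeR adjusted p = 0.002314), so the clones differed beyond their spread. Within A375 the effect in the clone minus that in the parent was -0.24 ± 0.11 (edgeR adjusted p = 0.1079), and it was called only without parent DMSO replicate 3 (-0.32, edgeR adjusted p = 0.03898). PISD shares 98 bases of chromosome 22 with SFI1, a centrosome gene, in the gene annotation of GRCh38.p14, and the strand setting of the counting is not given in the sources used here. SFI1, looked up after its values were seen, also rose in the HCT116 clone (0.31 ± 0.08, edgeR adjusted p = 0.00125, and 0.0004968 to 0.02515 over its alternatives) and had 8.25 to 20.88 TPM over all libraries. Whether reads of the shared bases moved between the genes was not tested.

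The ethanolamine kinases open the CDP-ethanolamine route. ETNK1 RNA has several transcripts in the annotation, and its estimated mean transcript length varied between 4788 and 7101 bases among libraries, so its TPM carries that estimate as well. On the CPM scale (counts per library total, scaled by TMM factors) ETNK1 measured 126, 123 and 122 CPM in HCT116 knockout libraries with DS07551382, against 136, 129 and 148 CPM with DMSO. The groups did not overlap, and the fall was 0.16 on the log2 scale (SE 0.05, edgeR adjusted p = 0.007803). The call was lost on the TPM scale, where the change was -0.08 with limma, and without knockout DMSO replicate 3 (-0.10, edgeR adjusted p = 0.1234). The effect in the HCT116 clone minus that in the parent was -0.14 ± 0.07 (edgeR adjusted p = 0.1389). It was called without parent DS07551382 replicate 2 (-0.19, edgeR adjusted p = 0.04438) and without knockout DMSO replicate 2 (-0.18, edgeR adjusted p = 0.04367). In the A375 clone ETNK1 measured 80.5, 78.8 and 84.2 CPM with DS07551382, against 79.0, 74.5 and 78.3 CPM with DMSO, an overlap between groups (log2 fold change 0.07 ± 0.05, edgeR adjusted p = 0.2715). The inhibitor effect in the A375 clone minus that in the HCT116 clone was 0.23 ± 0.07 (edgeR adjusted p = 0.009757), which was again lost on the TPM scale and without HCT116 knockout DMSO replicate 3 (0.18, edgeR adjusted p = 0.06713).

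ETNK2, the other kinase, was the lowest of the 6 genes in every group and fell in the A375 clone. It had 11.01, 9.12 and 10.2 TPM in A375 knockout libraries with DS07551382, against 12.0, 13.2 and 13.0 TPM with DMSO. The A375 parent had 12.6, 12.7 and 13.2 TPM with DS07551382, against 14.9, 16.04 and 13.9 TPM with DMSO. Within each pair the groups did not overlap, and the lowest 3 values of the line were those of the clone with inhibitor. In the clone the log2 fold change was -0.37 ± 0.10 (0.775-fold, edgeR adjusted p = 0.003218), against -0.20 ± 0.10 in the parent (edgeR adjusted p = 0.7578). The effect in the clone minus that in the parent was -0.17 ± 0.14 (95% interval -0.45 to 0.12, edgeR adjusted p = 0.429), so a difference between clone and parent was not shown.

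In HCT116 ETNK2 measured 19.6, 16.2 and 18.2 TPM in knockout libraries with DS07551382, against 16.4, 21.0 and 14.8 TPM with DMSO. The groups overlapped, with a log2 fold change of 0.06 ± 0.11 (95% interval -0.17 to 0.28, edgeR adjusted p = 0.7494). The effect in the A375 clone minus that in the HCT116 clone was -0.42 ± 0.15 (edgeR adjusted p = 0.04071). That call was lost in 12 of 21 alternatives, among them DESeq2 (adjusted p = 0.1045) and limma-voom (adjusted p = 0.06462).

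PCYT2 and SELENOI, the enzymes of the activation step and of a final step, rose together in the A375 clone, and their promoters are shown for that reason. Each stretch runs from 250 bases before the start of the RefSeq gene to 50 after it, in GRCh38.p14, and all 6 genes matched an entry of the RefSeq promoter table. The SELENOI promoter lies at chr2:26345893-26346192 on the plus strand, and the PCYT2 promoter, the first of its entries, at chr17:81911350-81911649 on the minus strand. Capitals mark the CCAAT box, CCAAT on either strand, which in these promoters reads ATTGG because each match is on the opposite strand.
SELENOI: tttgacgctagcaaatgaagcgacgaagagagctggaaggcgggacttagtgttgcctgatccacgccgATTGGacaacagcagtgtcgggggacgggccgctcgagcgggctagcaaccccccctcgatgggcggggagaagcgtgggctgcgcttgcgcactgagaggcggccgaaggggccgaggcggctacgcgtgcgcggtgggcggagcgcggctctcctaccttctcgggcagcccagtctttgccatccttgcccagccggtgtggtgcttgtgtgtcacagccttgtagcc
PCYT2: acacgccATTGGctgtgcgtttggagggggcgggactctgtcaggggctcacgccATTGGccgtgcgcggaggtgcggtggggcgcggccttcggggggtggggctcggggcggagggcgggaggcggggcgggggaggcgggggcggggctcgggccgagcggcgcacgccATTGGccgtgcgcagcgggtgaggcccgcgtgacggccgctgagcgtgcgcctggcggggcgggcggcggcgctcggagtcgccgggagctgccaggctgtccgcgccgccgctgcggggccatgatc
The SELENOI stretch holds 1 CCAAT box, whose first base is at position -181, and the PCYT2 stretch holds 3, at -243, -195 and -78, counted from the start of the gene. A CCAAT box is present in 34.61% of the 35116 promoters of the table, and 3 or more in 3.26%. The 5 further motifs searched on both strands were the ER stress element, which is CCAAT and then CCACG after 9 bases of any kind (0.08% of promoters), its second form, ATTGG and then CCACG after 1 base (0.05%), the unfolded protein response element TGACGTGG (0.73%), the CHOP and ATF4 composite element TGATGNAAN (3.61%) and the sterol element TCACNCCAC (1.13%). Both forms of the ER stress element contain the CCAAT box letters. None of these 5 was found in the promoter entries of the 6 genes, which says only that these letters are not in these windows. Of the other entries, the second of PCYT2 and those of ETNK1, ETNK2 and CEPT1 hold 0 CCAAT boxes, and 1 of the 2 entries of PISD holds 1. In GENCODE release 29 the listed transcript of SELENOI begins 29 bases, and 1 of the 7 listed for PCYT2 65 bases, from the start used in the table. That of PISD begins 31.4 kb away, so the PISD entries are not shown.

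PCYT2 makes CDP-ethanolamine, a step held to limit the rate of the route. In A375 it measured 22.1, 21.5 and 21.8 TPM in knockout libraries with DS07551382, against 18.2, 19.1 and 16.5 TPM with DMSO. The A375 parent had 19.3, 18.0 and 15.8 TPM with DS07551382, against 19.1, 21.7 and 18.0 TPM with DMSO. The clone with inhibitor stood above the clone with DMSO without overlap, but 1 parent DMSO library, at 21.7 TPM, lay within its range. The log2 fold change was 0.26 ± 0.08 in the clone (1.195-fold, edgeR adjusted p = 0.00738) and -0.13 ± 0.08 in the parent (edgeR adjusted p = 0.8316). The effect in the clone minus that in the parent was 0.38 ± 0.11 (edgeR adjusted p = 0.0083).

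The PCYT2 calls rested on single libraries. The rise in the clone was not called without knockout DMSO replicate 3 (0.20, edgeR adjusted p = 0.0711). The difference between clone and parent was not called without parent DMSO replicate 2 (0.31, edgeR adjusted p = 0.05074) or without parent DS07551382 replicate 3 (0.30, edgeR adjusted p = 0.0531). In the HCT116 clone PCYT2 measured 48.5, 50.5 and 49.6 TPM with DS07551382, against 46.6, 46.4 and 44.55 TPM with DMSO. These groups did not overlap either, but the log2 fold change of 0.11 ± 0.06 did not pass (95% interval 0.00 to 0.22, edgeR adjusted p = 0.1101). The inhibitor effect in the A375 clone minus that in the HCT116 clone was 0.15 ± 0.09 (95% interval -0.03 to 0.34, edgeR adjusted p = 0.2723), so no difference between the clones was shown for PCYT2.

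SELENOI, a selenoprotein that joins CDP-ethanolamine to diacylglycerol, had the smallest p of the 6 genes for the inhibitor. It measured 52.3, 50.75 and 53.6 TPM in A375 knockout libraries with DS07551382, against 37.4, 40.65 and 39.3 TPM with DMSO. The A375 parent had 38.4, 37.35 and 38.1 TPM with DS07551382, against 38.2, 36.9 and 38.9 TPM with DMSO. All 3 clone libraries with inhibitor exceeded every other library of either line, whose highest was 47.05 TPM. The log2 fold change in the clone was 0.39 ± 0.04 (1.31-fold, edgeR adjusted p = 5.885e-14), against 0.01 ± 0.04 in the parent (edgeR adjusted p = 0.9753). The effect in the clone minus that in the parent was 0.37 ± 0.05 (edgeR adjusted p = 4.835e-08), and both calls held in all alternatives tried.

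SELENOI went the other way in the HCT116 clone. It had 38.3, 42.2 and 40.8 TPM in HCT116 knockout libraries with DS07551382, against 44.9, 41.0 and 46.75 TPM with DMSO, and 1 DMSO library fell within the range with inhibitor. The log2 fold change was -0.13 ± 0.04 (0.915-fold, edgeR adjusted p = 0.01125). That call was lost with limma on TPM (-0.12, adjusted p = 0.1055), without knockout DMSO replicate 3 (edgeR adjusted p = 0.1019) and without knockout DS07551382 replicate 1 (edgeR adjusted p = 0.101). Against the HCT116 parent the difference of effects was -0.14 ± 0.06 (edgeR adjusted p = 0.06365). That difference was called in 6 of 22 alternatives, among them the fits without HCT116 replicate 2 of any 1 of the 4 groups (-0.18 to -0.16, edgeR adjusted p = 0.01951 to 0.04887). The effect in the A375 clone minus that in the HCT116 clone was 0.52 ± 0.06 (1.44-fold, edgeR adjusted p = 3.107e-13), the largest difference between the clones among the 6 genes.

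CEPT1, which makes both phosphatidylcholine and phosphatidylethanolamine in the endoplasmic reticulum, did not pass the test for the inhibitor in any group. It measured 27.65, 28.9 and 24.4 TPM in A375 knockout libraries with DS07551382, against 27.1, 28.9 and 28.0 TPM with DMSO. The HCT116 clone had 36.5, 41.1 and 35.4 TPM with DS07551382, against 38.9, 36.7 and 38.2 TPM with DMSO. The groups overlapped in both clones, and the log2 fold changes were -0.09 ± 0.08 in A375 (95% interval -0.25 to 0.07, edgeR adjusted p = 0.4176) and -0.01 ± 0.07 in HCT116 (95% interval -0.15 to 0.13, edgeR adjusted p = 0.943). In the HCT116 parent the groups stood apart, with 37.7, 36.6 and 37.9 TPM with DS07551382 against 40.1, 41.7 and 43.3 TPM with DMSO. That change of -0.14 ± 0.07 was not called (edgeR adjusted p = 0.9994). CEPT1, SELENOI and PCYT2 each share bases with a neighbour in the same annotation: 595 with DRAM2, 647 with ADGRF3 and 668 with NPB. ADGRF3 stayed at 0 to 0.46 TPM and did not pass the filter, and neither DRAM2 (10.43 to 19.72 TPM) nor NPB (2.71 to 8.89 TPM) was called for the inhibitor in any group.

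**Figure D2:**
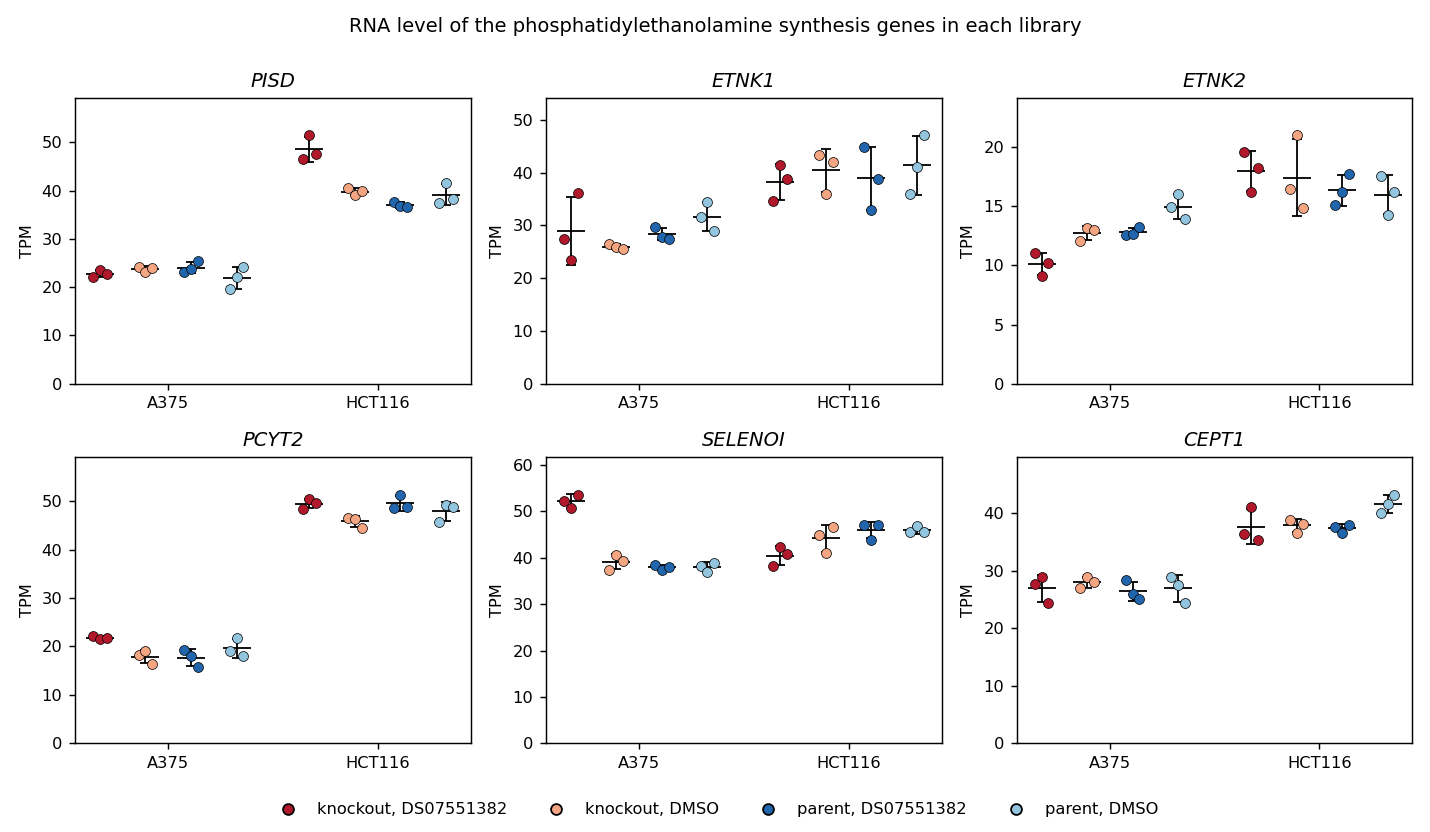
TPM of each gene in each of the 24 libraries, with a panel per gene, A375 left of HCT116, and within a line the knockout with DS07551382, the knockout with DMSO, the parent with DS07551382 and the parent with DMSO from left to right. Horizontal bars are means and vertical bars SDs of 3 libraries. PISD, PCYT2 and CEPT1 are lower in every A375 library than in any HCT116 library, a separation not counted over all genes. The A375 clone with inhibitor is the highest group for SELENOI at 50.75 to 53.6 TPM.

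Over the 6 genes, in the clones with inhibitor against the same clones with DMSO, 2 of the 6 genes had a higher effect in the A375 clone (ETNK1 and SELENOI) and 2 a lower one (PISD and ETNK2), where 19.7% of 14637 genes differed (10.9% higher and 8.75% lower in A375). For the effect in the clone minus that in the parent, 2 of 6 were called in A375, both higher, where 27.3% of genes were called (13.3% higher). In HCT116 1 of 6 was called, also higher, where 24.9% of genes were called (11.1% higher). These differences use the same clone libraries as the comparisons above and are not independent of them.

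In DMSO, without inhibitor, 1 of the 6 genes differed between the A375 clone and its parent, where 16.3% of genes did (9.54% higher and 6.78% lower), and 0 of 6 in HCT116, where 21.3% of genes did (10.5% higher and 10.8% lower). In HCT116 the log2 differences of the 6, knockout minus parent, ran from -0.12 ± 0.07 for CEPT1 to 0.14 ± 0.11 for ETNK2, and ETNK1 was called there only without knockout DMSO replicate 2 (0.13, edgeR adjusted p = 0.04352). The A375 gene was ETNK1, with 79.0, 74.5 and 78.3 CPM in knockout libraries, against 89.2, 88.8 and 80.6 CPM in parent libraries. The groups did not overlap, and ETNK1 fell by 0.15 on the log2 scale in the clone (SE 0.05, edgeR adjusted p = 0.02504), a call that was lost in 6 of 17 alternatives, among them DESeq2 (adjusted p = 0.07598) and the fits without parent DMSO replicate 1 or 2 or knockout DMSO replicate 2 (edgeR adjusted p = 0.1288, 0.1066 and 0.1083). ETNK2 did not overlap in A375 either, with 12.04 to 13.16 TPM in the clone and 13.92 to 16.04 TPM in the parent. Its log2 difference was -0.24 to -0.14 over 17 alternatives and was called in none. CEPT1 stood apart in HCT116 without a call, with 36.67 to 38.87 TPM in the clone and 40.14 to 43.28 TPM in the parent. How many of all genes stood apart in this way was not counted. The log2 difference of ETNK1 in A375 minus that in HCT116 was -0.25 ± 0.07 (edgeR adjusted p = 0.00474), a call lost on the TPM scale (-0.24, limma adjusted p = 0.3874). ETNK1 was the only one of the 6 whose clone difference was called between the lines, where 17.7% of genes were (9.44% higher and 8.25% lower), except that ETNK2 was called too without HCT116 knockout DMSO replicate 3 (-0.46, edgeR adjusted p = 0.02511).

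Among the parents with DMSO 5 of the 6 genes were lower in A375 than in HCT116 and 0 were higher, where 81.8% of genes differed (42.2% higher and 39.6% lower). The median log2 difference of the 6 was -0.55, against 0.03 over all genes tested. PCYT2 differed most, with 19.6 ± 1.92 TPM in the A375 parent and 47.9 ± 1.91 TPM in the HCT116 parent, both with DMSO (log2 difference -1.255 ± 0.065, edgeR adjusted p = 2.211e-33). PISD had 22.0 ± 2.29 TPM in A375 and 39.15 ± 2.15 TPM in HCT116 (-0.78 ± 0.07, edgeR adjusted p = 4.345e-18). CEPT1 differed by -0.58 ± 0.08, ETNK1 by -0.52 ± 0.05 and SELENOI by -0.22 ± 0.04. ETNK2 had 14.96 ± 1.06 TPM in A375 and 15.99 ± 1.64 TPM in HCT116, a log2 difference of -0.05 ± 0.10 that did not pass (95% interval -0.25 to 0.16, edgeR adjusted p = 0.6766).

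Over all conditions the ranges of PISD, PCYT2 and CEPT1 did not overlap between the lines. How many of all genes were separated in this way was not counted, and 81.8% of genes differed between the parents with DMSO. PISD spanned 19.7 to 25.3 TPM in A375 and 36.6 to 51.5 TPM in HCT116, PCYT2 15.8 to 22.1 TPM and 44.55 to 51.35 TPM, and CEPT1 24.4 to 28.9 TPM and 35.4 to 43.3 TPM. The ranges of ETNK1, ETNK2 and SELENOI overlapped. For SELENOI the A375 clone with inhibitor stood above all 4 HCT116 groups, while the other 3 A375 groups, at 37.9 to 39.1 TPM on average, lay below the HCT116 group means of 40.45 to 46.0 TPM.

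The order of the genes by level, which TPM allows because it is scaled by length, kept its first and last place within a line. The places between them changed among the groups of a line. PCYT2 ranked first in all 4 HCT116 groups and SELENOI in all 4 A375 groups, and ETNK2 ranked last in all 8. In HCT116 the first place was shared within the spread except in the parent with inhibitor, where PCYT2 stood apart from SELENOI. PCYT2 overlapped SELENOI with DMSO in both genotypes and PISD in the clone with inhibitor. PISD ranked second in the HCT116 clone with inhibitor, at 48.6 ± 2.65 TPM against 49.5 ± 1.01 TPM for PCYT2. In that clone with DMSO PISD, at 39.8 ± 0.692 TPM, overlapped ETNK1, at 40.41 ± 3.99 TPM. In A375 SELENOI stood apart from the gene below it in every group, at 52.2 ± 1.45 TPM in the clone with inhibitor, where ETNK1 came next with 28.99 ± 6.47 TPM.

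The estimated transcript length, which moves with the mix of transcripts of a gene, could vary for ETNK1, PCYT2 and CEPT1, while PISD, ETNK2 and SELENOI were listed with 1 length. With 3 libraries against 3 the exact permutation test cannot go below p = 0.10. For the inhibitor, the lengths of these 3 genes overlapped between groups in both clones, where 11.2% of multi-transcript genes in A375 and 11.1% in HCT116 did not overlap, and in both parents (8.56% and 8.38%). Between clone and parent in DMSO the length of PCYT2 did not overlap in HCT116, with 3260 ± 3.61 bases in the clone and 3249 ± 1.27 bases in the parent (exact permutation p = 0.1, two-sided, against a background of 10.9%). In A375, where the background was 9.06%, none of the 3 stood apart. Between the parents, lengths of ETNK1 and PCYT2 did not overlap, with a background of 27.7%: ETNK1 had 5576 ± 278 bases in A375 and 6377 ± 644 bases in HCT116, and PCYT2 3216 ± 13.4 bases and 3249 ± 1.27 bases.

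The genes around the pathway also moved in part. Of 27 genes listed for the supply of phosphatidylserine and ethanolamine, transfer into mitochondria, the choline branch, breakdown and use, 25 were tested in each line. In the A375 clone with inhibitor 4 rose and 3 fell, with a median of 0.01, and in the HCT116 clone 6 rose and 4 fell, with a median of -0.01, against the background shares and medians given above. CHKB, a choline kinase gene among the 6 that rose in HCT116, shares exons with a readthrough transcript, so its count is uncertain. In both parents 0 were called. In DMSO the clones had 0 higher and 4 lower in A375, PTDSS2 among them, where 9.54% of all genes were higher and 6.78% lower, and 2 higher and 7 lower in HCT116, again with PTDSS2, where 10.5% were higher and 10.8% lower. PTDSS2 also passed as higher with inhibitor in the A375 clone (0.89 ± 0.31, edgeR adjusted p = 0.02885), near 1 TPM and lost in 6 of 17 alternatives.

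PTDSS1, CHKA and MFN2 passed as lower in both clones with inhibitor, but the A375 calls of PTDSS1 and MFN2 rested on the setting. PTDSS1, the synthase that DS07551382 inhibits, averaged 129 ± 9.90 TPM in the A375 clone with DS07551382 and 137 ± 5.02 TPM with DMSO (-0.12 ± 0.04, edgeR adjusted p = 0.01091), and 63.2 ± 1.81 TPM in the HCT116 clone with DS07551382 and 86.4 ± 1.91 TPM with DMSO (-0.45 ± 0.05, edgeR adjusted p = 1.099e-11). The A375 groups overlapped, and the call there was lost in 6 of 17 alternatives, among them DESeq2 (adjusted p = 0.05193), limma on TPM (adjusted p = 0.1941) and the fits without knockout DMSO replicate 1 or 3 (edgeR adjusted p = 0.0702 and 0.05518) or knockout DS07551382 replicate 2 (-0.06, edgeR adjusted p = 0.2642). In HCT116 PTDSS1 was already lower in the clone with DMSO than in the parent with DMSO, which had 102 ± 2.54 TPM. That difference was called in all 17 alternatives, at -0.24 to -0.18 on the log2 scale. CHKA, a kinase of choline that also accepts ethanolamine, changed by -0.30 ± 0.08 in A375 (edgeR adjusted p = 0.002579, lost without knockout DMSO replicate 3 at 0.05424) and -0.74 ± 0.08 in HCT116 (edgeR adjusted p = 4.024e-12). MFN2, a mitochondrial outer membrane protein, changed by -0.10 ± 0.04 and -0.23 ± 0.04 (edgeR adjusted p = 0.02013 and 3.665e-06). The A375 call of MFN2 was lost in 8 of 17 alternatives, among them DESeq2 (adjusted p = 0.07255), library size alone (edgeR adjusted p = 0.05396), no filter (edgeR adjusted p = 0.05057) and the fits without knockout DMSO replicate 3 or knockout DS07551382 replicate 2 or 3 (edgeR adjusted p = 0.07102, 0.05359 and 0.08151). For CHKA, MFN2 and the genes of the next paragraph, running the alternatives was decided after their values were seen.

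Other changes were called in 1 clone. In A375 PRELID3B, a lipid transfer protein of the space between the mitochondrial membranes, rose by 0.24 ± 0.03 (edgeR adjusted p = 9.305e-09), and SLC44A1, a transporter of choline and ethanolamine, by 0.29 ± 0.04 (edgeR adjusted p = 5.743e-08). PRELID3B averaged 298 CPM in the A375 clone with DS07551382 and 253 CPM with DMSO, against 305 and 311 CPM in the A375 parent. Its mean in the clone therefore rose from below the parent and did not exceed it. The effects in A375 minus those in HCT116 were 0.34 ± 0.06 for PRELID3B and 0.28 ± 0.06 for SLC44A1 (edgeR adjusted p = 1.656e-05 and 0.0004772). In HCT116 SLC44A2, of the same transporter family, rose by 0.31 ± 0.05 and SGPL1, the lyase that releases phosphoethanolamine from sphingosine phosphate, by 0.28 ± 0.05 (edgeR adjusted p = 4.074e-07 and 1.03e-06). Their effects in A375 minus those in HCT116 were -0.40 ± 0.08 and -0.31 ± 0.09 (edgeR adjusted p = 4.362e-05 and 0.007679), and that of SGPL1 was lost with limma on TPM (adjusted p = 0.05838) and without A375 knockout DS07551382 replicate 2 (-0.23, edgeR adjusted p = 0.07817). MBOAT2, an acyltransferase of lysophosphatidylethanolamine, also rose in HCT116 (0.42 ± 0.10, edgeR adjusted p = 0.0003395), and its effect in A375 minus that in HCT116 was -0.59 ± 0.13 (edgeR adjusted p = 0.0001657).

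**Figure D3:**
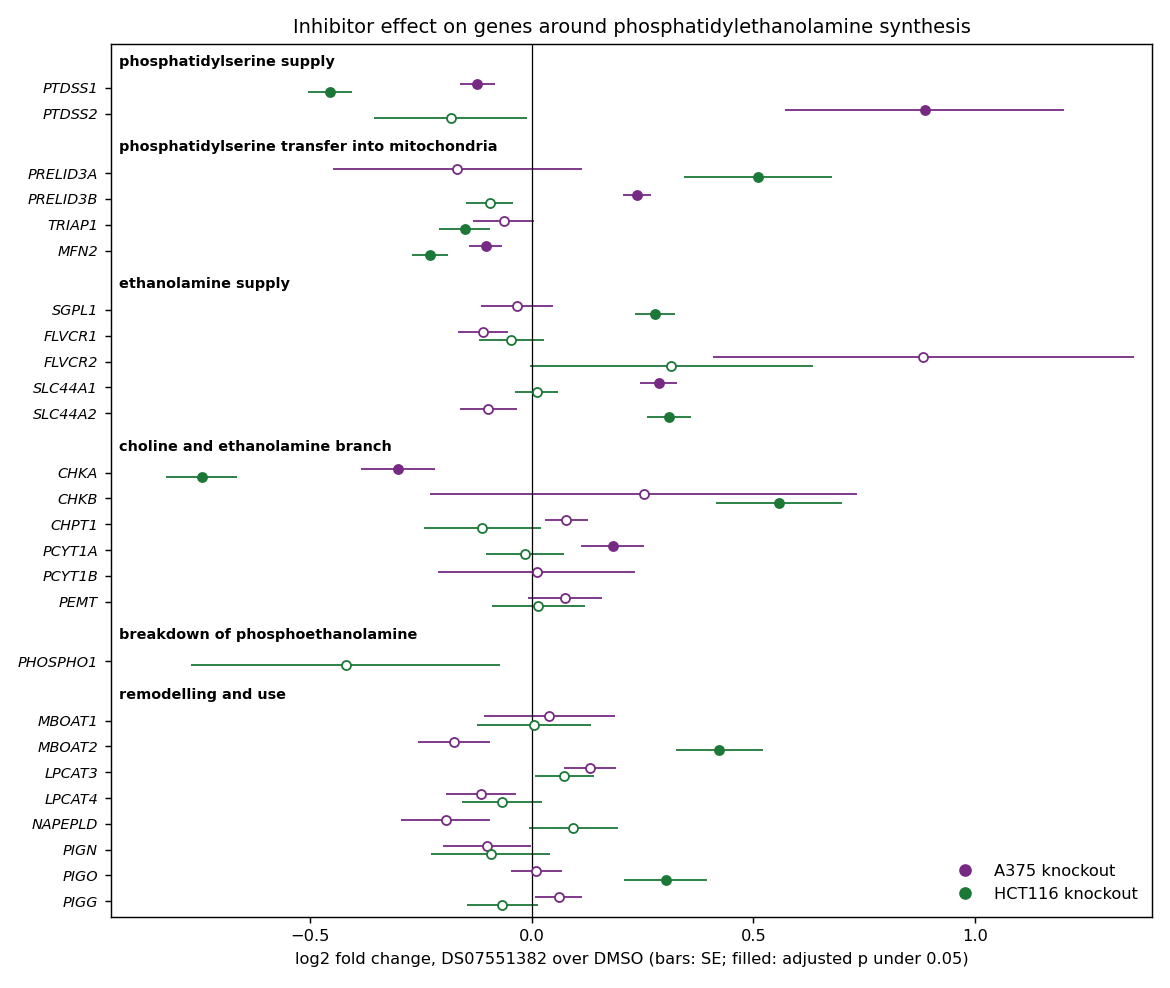
Log2 fold change with DS07551382 over DMSO of the genes around phosphatidylethanolamine synthesis, grouped by role, in the A375 clone (purple) and the HCT116 clone (green). Bars are standard errors and filled points passed the edgeR test; PTDSS1, CHKA and MFN2 lie left of 0 and filled in both clones, with CHKA lowest in HCT116 at -0.74.

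The genes whose pattern was most like each of the 6 were found from the 8 group means of log2 CPM, centred on the mean of their line, among 9035 genes with at least 8 CPM. These correlations describe 8 means that share libraries within a group. For each of the 6 they are the 3 highest of all genes compared, so high values come from the search itself. CEPT1, which did not pass the test for the inhibitor, also reached 0.962. Whether genes of one compartment are frequent among the nearest genes was not tested. For SELENOI the nearest genes were SURF4, a cargo receptor of the endoplasmic reticulum (r = 0.992), SEC61A1, the channel of the protein translocon (0.992), and MLEC, a lectin of the endoplasmic reticulum (0.99). In the A375 clone with inhibitor, where SELENOI stood at 0.32 above its line mean, these 3 stood at 0.34, 0.39 and 0.29, and in the HCT116 clone with inhibitor at -0.15, -0.09 and -0.14, against -0.12 for SELENOI. For PISD they were FHOD3 (0.978), PRPF40B (0.976) and RSKR (0.975), with values of 0.25, 0.66 and 0.18 in the HCT116 clone with inhibitor, against 0.25 for PISD.

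PCYT2 was nearest to METTL4 (0.981), UBE2F (0.979) and ELOVL5, a fatty acid elongase (0.967). ETNK2 was nearest to ARHGEF39 (0.984), MEA1 (0.981) and PKN3 (0.97), and ETNK1 to GDF11 (0.979), KLHDC3 (0.96) and TBC1D16 (0.948). CEPT1 was nearest to CCDC66 (0.962), STARD9 (0.96) and SS18L2 (0.905). Without centring on the line, 1 of the 3 genes named for SELENOI and for CEPT1 remained among the nearest and 0 of the 3 for each of the other genes.

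**Figure D4:**
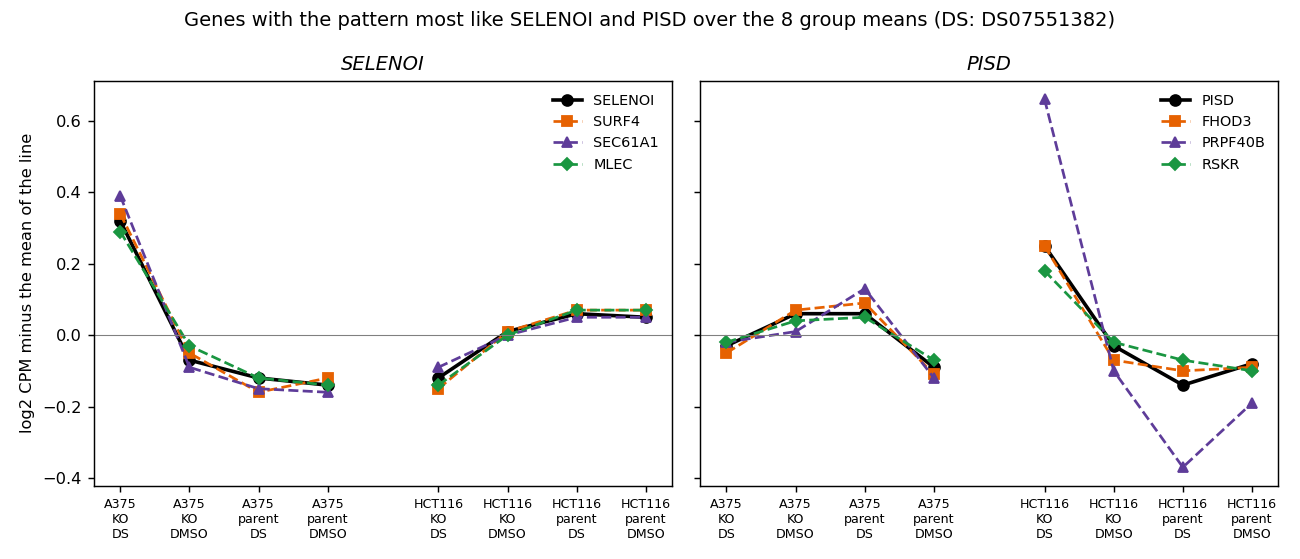
Mean log2 CPM of SELENOI (left) and PISD (right) in each group, in black, with the 3 genes of the most similar pattern in colour; values are relative to the mean of the line, KO marks the knockout clone and DS the inhibitor. SELENOI peaks in the A375 clone with inhibitor at 0.32 and PISD in the HCT116 clone with inhibitor at 0.25.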

How the data were processed

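Poly(A) RNA libraries were prepared with an NEBNext Ultra kit, per the labels' protocols. Per the submitters' processing notes, STAR 2.4.2a and RSEM 1.2.23 were used with build hg19. Which annotation and strand setting they used is not given here. The deposited expected counts per gene, per the file headers, share out reads that match several transcripts. The authors' TPM values allow for length and library size, per the file headers, and the deposited length is a mean over transcripts weighted by abundance. The deposited FPKM values were not used.

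Symbols came from a RefSeq gene table of GRCh38.p14, which matched 25220 of 25343 numeric identifiers. Genes without a match took up to 0.0724% of a library's counts. Promoter sequences are from the RefSeq promoter table of GRCh38.p14, and transcript starts from GENCODE release 29. Because the files are on hg19, no coordinate was converted, and coordinates refer to GRCh38.p14.

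Expected counts were rounded to whole numbers, scaled with TMM factors and filtered with edgeR's default (minimum count 10, minimum total 15). The two-sided quasi-likelihood F test of edgeR 4.0.16 in R 4.3.3 was fitted to the 12 libraries of a line, or to all 24 for comparisons between lines. In 11 comparisons, Benjamini-Hochberg adjustment ran over every gene tested, with calls under 0.05. Comparisons within a line share control libraries. Levels between genes were compared in TPM. Correlations of pattern used log2 CPM with a prior count of 2. The fit was tested on simulated data, and the permutation test on fixed values with known answers. Library totals are given in the report, and counting error is part of the spread between libraries.

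The 6 genes and the lists of other genes were chosen with earlier results of these data known. Named genes were all 6, PTDSS1 and PTDSS2, the 6 of the surrounding list with the smallest adjusted p in each clone with inhibitor, and the 3 nearest patterns. SFI1, ADGRF3, DRAM2 and NPB were added after their values were seen. The alternatives tried were DESeq2 1.42.0 and its size factors, scaling by library size, leaving out the filter or setting it at a mean of 5 CPM, limma-voom (limma 3.58.1), limma on log2(TPM + 1) and log2(TPM + 0.1), which understate changes of low genes, a replicate block, all 24 or only the 6 libraries compared, and each library left out in turn. Their use on SFI1 and the surrounding list was chosen after seeing the data.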

Additional observations from a re-analysis of the deposited data

Results flagged for a closer look

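Each of the following is a difference between the effects of one contrast in different cells that passed the edgeR test of the difference itself, and no cause was tested. For the inhibitor in the clone minus the parent, PISD differed by 0.35 in HCT116, and PCYT2 by 0.38 and SELENOI by 0.37 in A375 (log2 scale; edgeR adjusted p = 0.0012, 0.0083 and 4.835e-08). These 3 differences were positive, where 13.3% of all genes tested in A375 and 11.1% in HCT116 were called higher. Called or not, the 6 genes had 3 positive and 3 negative differences in A375, and 4 positive and 2 negative in HCT116. PISD and SELENOI kept their calls in all alternatives run, while PCYT2 lost its call without parent DMSO replicate 2 (0.31) and without parent DS07551382 replicate 3 (0.30).

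For the inhibitor in the A375 clone minus that in the HCT116 clone, SELENOI differed by 0.52, ETNK1 by 0.23, PISD by -0.37 and ETNK2 by -0.42 (edgeR adjusted p = 3.107e-13, 0.009757, 0.002314 and 0.04071). SELENOI rose in the A375 clone and fell in the HCT116 clone. That fall lost its call in 4 of 17 alternatives, the groups overlapped, and the effect minus that in the HCT116 parent was not called. PISD rose in the HCT116 clone and did not pass the test in A375. ETNK2 fell in the A375 clone, and ETNK1 fell in the HCT116 clone. The ETNK2 difference lost its call in 12 of 21 alternatives, among them DESeq2 (adjusted p = 0.1045) and limma-voom (adjusted p = 0.06462). The ETNK1 difference lost its call with limma on TPM (0.21, adjusted p = 0.4473) and without HCT116 knockout DMSO replicate 3 (0.18, edgeR adjusted p = 0.06713).

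For clone against parent in DMSO, ETNK1 differed by -0.25 in A375 minus HCT116 (edgeR adjusted p = 0.00474), a call lost with limma on TPM (-0.24, adjusted p = 0.3874). It was lower in the A375 clone than in its parent, and it did not pass the test in HCT116, where the difference was 0.09 ± 0.05.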

How the results depend on the processing

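Pairing by replicate number was not shown: correlations of deviations between libraries with the same number ran from -0.072 to 0.122. Libraries with different numbers were not compared, so these values have no reference. With a replicate block the count of genes called in the HCT116 parent was 1, against 0 without it, and no count of the 6 genes changed. In the HCT116 parent 4 genes were called with no filter, 4 with only the 6 libraries compared and 1 with DESeq2. In the A375 parent limma on TPM called 6 genes with either pseudocount, against 14. Between clone and parent in DMSO, DESeq2 called 1371 genes in A375 and 1798 in HCT116, against 2196 and 2804.

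Of the 6 genes, limma on TPM with either pseudocount called 1 for the inhibitor in the HCT116 clone (3 with edgeR), 2 for the A375 clone minus the HCT116 clone (4 with edgeR), and 0 for clone against parent in A375 and for that difference between the lines (1 each with edgeR). DESeq2 also called 0 for clone against parent in A375. No filter, and the fit of all 24 libraries, each called 2 for the inhibitor in the HCT116 clone minus the parent, against 1. The cause was not tested.

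With 1 library left out, the number of the 6 genes called ran from 1 to 3 for the inhibitor in the HCT116 clone (1 without knockout DMSO replicate 3), 1 to 3 for the clone minus the parent in HCT116 and in A375, 0 to 1 for clone against parent in A375 and in HCT116, 2 to 4 for the A375 minus the HCT116 clone and 1 to 2 for the clone difference between the lines. The genes called ran from 0 to 2 in the HCT116 parent and from 9 to 15 in the A375 parent (9 without DMSO replicate 3). The number of genes with lengths that did not overlap ran from 1 to 2 for clone against parent in HCT116, and from 0 to 1 for that in A375 and for the inhibitor in both parents.

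Sign changes were confined, in all settings run, to log2 values that were not called in the edgeR fit. CEPT1 in the HCT116 clone with inhibitor was 0.002 with library size alone and 0.0083 with the filter at 5 CPM. With limma on TPM, at a pseudocount of 1 and 0.1, SELENOI with inhibitor was -6e-04 and -6e-04 in the HCT116 parent and -0.0021 and -0.0022 in the A375 parent. On the same scale ETNK1 was -0.0306 and -0.0312 for clone against parent in HCT116, and 0.0148 and 0.0152 for the inhibitor in the HCT116 clone minus the parent. With 1 library left out, the inhibitor in the HCT116 clone gave -0.0581 to 0.2285 for ETNK2 and -0.0718 to 0.0361 for CEPT1. In the HCT116 parent it gave -0.0623 to 0.0304 for ETNK1, -0.0328 to 0.1129 for ETNK2 and -0.003 to 0.0375 for SELENOI, and for the clone minus the parent -0.0958 to 0.1908 for ETNK2. In the A375 parent it gave -0.0061 to 0.0312 for SELENOI, -0.0789 to 0.0396 for CEPT1, -0.0028 to 0.0488 for PTDSS1 and -0.083 to 0.0175 for PTDSS2. CEPT1 ran from -0.1331 to 0.0018 for the A375 clone minus the parent and from -0.1405 to 0.0048 for the A375 minus the HCT116 clone. For clone against parent in DMSO, ETNK2 ran from -0.0319 to 0.2546 in HCT116, and PCYT2 from -0.1177 to 0.0137 for A375 minus HCT116. ETNK2 in the A375 minus the HCT116 parent ran from -0.1189 to 0.0308.

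With 3 libraries a group and 1 clone a line, the standard errors of the 6 genes ran up to 0.16 on the log2 scale, for ETNK2 in the HCT116 clone minus the parent.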
